A study of Mus musculus with 6 samples.

Results

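ESRRB regions that were called at 48 h and at 96 h after 2iL withdrawal, and not in 2iL, numbered 1103 of 18634 merged ESRRB regions (5.92%, exact Clopper-Pearson 95% interval 5.58 to 6.27). They were chosen by pooling the peak intervals of 3 ESRRB ChIP-seq libraries (DNA bound by a protein, enriched with an antibody and sequenced), merging intervals that overlapped by at least 1 bp, and keeping merged regions with an interval from both later libraries and none from 2iL. Absence from the 2iL list and presence in the later lists are therefore the definition of these regions and not a result. The cells were E14, a mouse embryonic stem cell line derived from blastocysts. They were grown in N2B27, a serum-free medium, with 2iL. That supplement holds CHIR99021 at 3 µM, which blocks GSK3, PD0325901 at 1 µM, which blocks MEK, and LIF, a cytokine that signals through STAT3. For the later conditions the cells were plated at single-cell density in 2iL, and from the next day they were held in N2B27 without 2iL for 48 h or 96 h. Each condition had 1 ESRRB library made with the same mouse monoclonal antibody, and no replicate, so no difference between conditions was tested. All 3 came from the same cell line. The 3 input libraries were not analysed here. ChIP-seq reads the whole population, and weak binding in all cells and stronger binding in some cells cannot be told apart. The peak lists hold no expression values, so the labelled cell type was not checked against marker genes.

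ESRRB is an orphan nuclear receptor. It binds DNA as a monomer at the half-site AAGGTCA, often with the extension TCAAGGTCA, and in naive stem cells it works with NANOG, OCT4, SOX2 and the KLF factors to hold the network of self-renewal genes. When 2iL is withdrawn, cells leave the naive state through a formative phase, in which naive genes fall and genes such as Otx2, Fgf5 and the DNA methyltransferases rise.

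Where a member summit fell in an annotated promoter, the DNA could be read. The promoter windows of RefSeq (build GRCm38.p6, from 250 bases before to 50 bases after a start site) held a summit of 26 members in 27 promoters, 19 of protein-coding genes and 8 of long noncoding RNAs. The half-site AAGGTCA, searched on both strands, was present in 9 of these 27 promoters. The longer form TCAAGGTCA, which contains the half-site and is counted within it, was present in 3. The 250 bases before the start sites of those 3 are shown first, because they carry the longest match to the ESRRB site, with half-sites and extended half-sites in capitals, 5′ to 3′ on the strand of the gene.

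Hcn2: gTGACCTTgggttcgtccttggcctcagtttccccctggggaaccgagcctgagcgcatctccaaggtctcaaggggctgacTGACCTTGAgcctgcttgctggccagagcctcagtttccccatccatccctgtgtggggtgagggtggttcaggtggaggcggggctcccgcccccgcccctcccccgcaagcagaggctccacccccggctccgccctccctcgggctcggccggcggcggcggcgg
Sgms1: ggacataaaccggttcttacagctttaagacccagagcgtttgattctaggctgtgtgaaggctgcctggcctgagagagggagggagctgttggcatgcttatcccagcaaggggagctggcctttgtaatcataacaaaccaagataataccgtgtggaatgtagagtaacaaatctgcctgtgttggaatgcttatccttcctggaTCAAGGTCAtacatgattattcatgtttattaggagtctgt
Gm46796: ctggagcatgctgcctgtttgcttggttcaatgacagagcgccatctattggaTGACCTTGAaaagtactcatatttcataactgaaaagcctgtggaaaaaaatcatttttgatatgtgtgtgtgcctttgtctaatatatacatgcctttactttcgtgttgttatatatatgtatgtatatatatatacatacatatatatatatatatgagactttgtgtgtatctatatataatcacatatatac

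The Hcn2 stretch is chr10:79716384-79716633 on the plus strand, upstream of a gene for a pacemaker ion channel. Its region had a fold enrichment over local background (the height of the highest summit against the surrounding level, as the authors' peak caller gave it) of 7.03 at 48 h and 9.07 at 96 h. The AAGGTCA core of the extended half-site was centred 165 bases before the start site. This centre lay 2 bp from the 48 h summit and 43 bp from the 96 h summit. Distances of the other sites are also from the centre of the core. A further half-site stood 246 bases before the start site. The Sgms1 stretch is chr19:32349317-32349566 on the minus strand, upstream of a gene for a sphingomyelin synthase, with folds of 3.43 and 4.85. Its extended half-site lay 36 bases before the start site, 12 bp from the 48 h summit and 28 bp from the 96 h summit. The Gm46796 stretch is chr3:6106767-6107016 on the plus strand, upstream of a long noncoding RNA gene, with folds of 8.17 and 8.77, and its extended half-site lay 27 bp from the 48 h summit and 1 bp from the 96 h summit. In these 3 promoters the centre of the core lay within 43 bp of both summits.

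The other 6 promoters held the half-site without the extension. A window of 10 bases on each side is shown for each, in the same form, because they show how the bases around the half-site varied.

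Cryga: ctttgtctccAAGGTCAtaatggctct
Jdp2: gggggaggtgAAGGTCAgtgggtgtga
Cdip1: gacccgcgggTGACCTTggcggtcctg
9330198N18Rik: tggccatgtgTGACCTTggacttagtt
Strbp: taacttggccAAGGTCAcacaaccggc
Gm34319: attttgtccgTGACCTTcgcgccggaa

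In Cryga, a lens crystallin gene (chr1:65103578-65103604, minus strand), the half-site lay 16 bp from the 48 h summit and 15 bp from the 96 h summit, and the region had folds of 4.52 and 4.59. In 9330198N18Rik, a long noncoding RNA gene (chr2:30629434-30629460, plus strand), it lay 41 and 60 bp from the summits, and the folds were 5.50 and 9.06. In Strbp, which encodes an RNA-binding protein (chr2:37703961-37703987, minus strand), the distances were 20 and 214 bp and the folds 2.58 and 3.31. In Jdp2, a gene for an AP-1 family repressor (chr12:85599215-85599241, plus strand), Cdip1 (chr16:4789506-4789532, minus strand) and Gm34319 (chr5:108434360-108434386, plus strand), the half-site lay 95, 115 and 78 bp from the 48 h summit and 41, 191 and 56 bp from the 96 h summit. The folds at 48 h and 96 h were 3.33 and 4.18 for Jdp2, 2.64 and 2.67 for Cdip1 and 3.38 and 3.51 for Gm34319. The half-site was thus beside the summit in Cryga and farther from it in Cdip1 at both times.

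The half-site stood in 33.3% of the 27 promoters (95% interval 16.5 to 54.0), against 4.72% of all 32817 promoters in the table. Promoters with a summit of a region called in all 3 libraries held it in 32.9% (56 of 170, 25.9 to 40.6), those of regions called at 48 h alone in 37.8% (14 of 37), those of regions called at 96 h alone in 17.6% (6 of 34, 6.76 to 34.5) and those of regions called in 2iL alone in 20.6% (36 of 175, 14.8 to 27.3). The extended form stood in 11.1% of member promoters (95% interval 2.35 to 29.2), in 5.29% of promoters of regions called in all 3 libraries (9 of 170) and in 0.424% of all promoters. It stood in 5.41% of promoters of regions called at 48 h alone (2 of 37), in 2.94% at 96 h alone (1 of 34) and in 0.571% in 2iL alone (1 of 175). For both forms the interval of the member promoters overlapped those of the other classes. Overlap of intervals is not a test, and no difference between classes was tested. The 18 member promoters without the half-site had a median fold of 3.62 at 48 h and 3.95 at 96 h, against 3.43 and 4.59 in the 9 with it. A window with no exact match may still hold a site with a changed base.

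**Figure D1:**
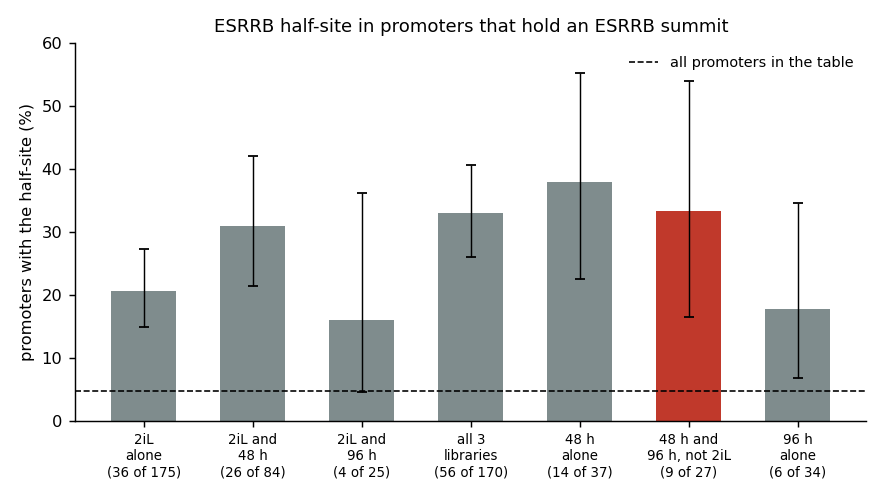
Share of promoters with the ESRRB half-site AAGGTCA (either strand), in percent, among promoters that hold an ESRRB summit, by the libraries in which the region was called; lines are exact 95% intervals and the dashed line is the share in all promoters of the table. The member promoters (9 of 27, 33.3%) stood near those of regions called in all 3 libraries (32.9%), and above the 4.72% of all promoters.

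Other short motifs were searched in the same 27 promoters on both strands. The ZIC motif CAGCAGG was found in 7 (25.9%, 95% interval 11.1 to 46.3), against 10.5% of all promoters and 14.1% of promoters of regions called in all 3 libraries. It stood in 18.9% of promoters of regions called at 48 h alone (7 of 37) and in 17.6% at 96 h alone (6 of 34). The grainyhead motif AACCGG was found in 6 (22.2%, 8.62 to 42.3), against 6.83% of all and 15.9% of those called in all 3. At 48 h alone it stood in 21.6% (8 of 37), near the members' share, and at 96 h alone in 8.82% (3 of 34). The KLF/SP motif GGGCGG was found in 13 (48.1%), against 35.6% of all and 60.6% of those called in all 3. The TEAD motif GGAATG was found in 4 (14.7% of all promoters held it), the OTX2 motif TAATCC in 3 (7.06% of all), the AP-1 motif TGACTCA in 2 (5.2% of all) and the SOX motif CATTGT in 1 (12.6% of all). The POU octamer ATGCAAAT and the TCF/LEF motif ATCAAAG were in none of the 27, and stood in 1.74% and 3.73% of all promoters. With 27 promoters each of these intervals is wide, and those of ZIC and grainyhead hold the shares of the regions called in all 3 libraries.

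The members were of middle strength among the regions of the later libraries. Their folds at 48 h ran from 1.69 to 14.3 with a median of 4.95 (quartiles 3.95 and 6.37), and at 96 h from 1.75 to 14.3 with a median of 4.53 (3.71 and 5.55). The highest summit of a member held a median of 66 reads over a local background of 11.8 at 48 h, and 40 reads over 7.29 at 96 h. At 48 h the median fold was 4.07 for regions called at 48 h alone, 4.66 for those shared with 2iL and 6.82 for those called in all 3 libraries. At 96 h it was 3.78 for regions called at 96 h alone, 3.94 for those shared with 2iL and 5.72 for those called in all 3. Regions called at both later times were thus higher in each library than regions called there alone, and lower than regions called throughout. The same values take part in whether a region is called, so they describe the classes and support nothing further.

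Few members reached the top of a list. Of the 1103, 540 (49.0%) were at or above the median fold of the whole 48 h list and 450 (40.8%) above that of the 96 h list. The strongest 10% of the lists began at a fold of 9.76 at 48 h, which 42 members reached, and 9.54 at 96 h, which 25 reached. The libraries differed in depth: the lowest local background at any summit came to 8.09 reads at 48 h, 5.84 at 96 h and 5.04 in 2iL. Of the members, 820 (74.3%, 95% interval 71.7 to 76.9) had a fold of at least 3.47 in both later libraries, the level above which 95% of 2iL regions lay, and 133 (12.1%) had at least the 2iL median of 5.88 in both. Whether depth in 2iL played a part in which regions were left uncalled there was not tested.

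**Figure D2:**
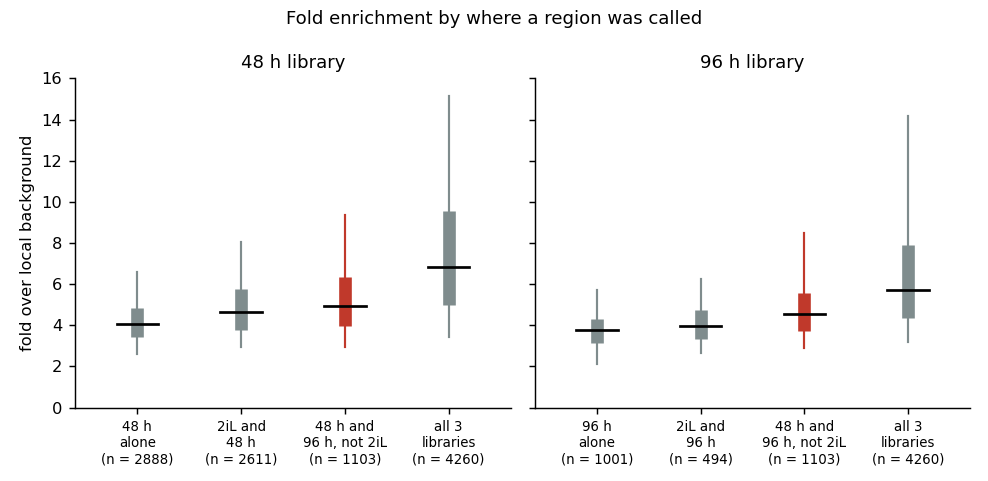
Fold over local background at 48 h (left) and 96 h (right) for regions grouped by the libraries in which they were called; black lines are medians, thick bars the quartiles and thin lines the 5th to 95th percentiles. The members (red) had medians of 4.95 and 4.53, between the regions called at 1 later time alone and those called in all 3 libraries.

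The members' summits lay close together at both times. A member needs intervals of both later libraries in 1 merged region, so some closeness of its summits follows from the rule. The highest summits of 48 h and 96 h lay a median of 34 bp apart, and within 50 bp of each other in 741 members (67.2%, 95% interval 64.3 to 69.9). In regions called in all 3 libraries the median was 25 bp and the share within 50 bp was 76.5% (75.2 to 77.7), and those regions held more reads. The regions were compact, with median widths of 964 bp at 48 h and 806 bp at 96 h, and 32.8% and 28.7% of them held more than 1 summit.

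Strength at 48 h gave a partial order of strength at 96 h. Spearman's rank correlation of the folds was 0.45 over the 1103 members, as a description of 1 pair of libraries, and 0.68 over the 4260 regions called in all 3, whose folds spread more widely. The fold at 96 h was a median of 0.930 times that at 48 h in members and 0.874 times in regions called in all 3. At least a 1.5-fold higher value at 96 h was found in 76 members (6.89%, 95% interval 5.47 to 8.55), against 5.33% of all 5363 regions called at both times. At least a 1.5-fold higher value at 48 h was found in 184 members (16.7%, 14.5 to 19.0), against 20.8% of those regions. Each fold is over its own library's background, so a ratio shows no tested change in binding.

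**Figure D3:**
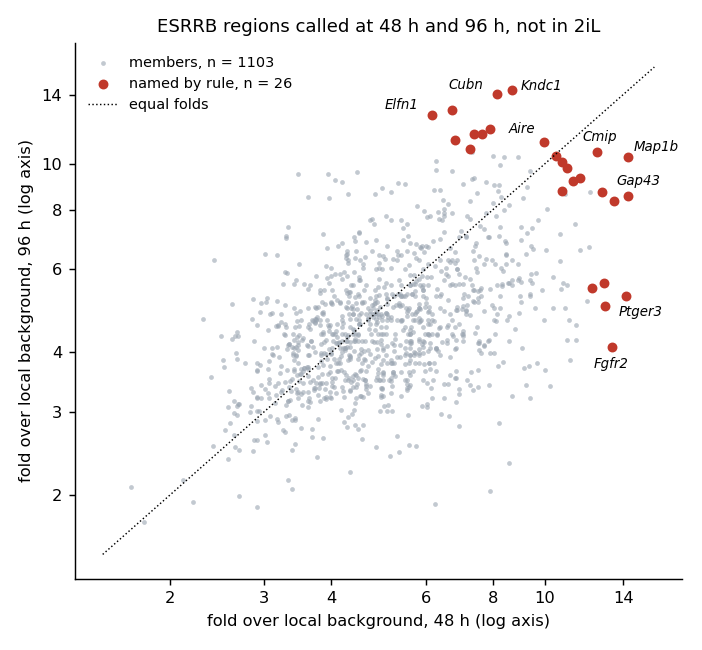
Fold over local background at 48 h and at 96 h for each of the 1103 members (both axes logarithmic), with the 26 members named by rule in red and the dotted line at equal folds. Cmip and Map1b were high at both times, Fgfr2 and Ptger3 high at 48 h, and Kndc1, Cubn and Elfn1 higher at 96 h.

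The member with the best lower rank of the 2 libraries lay 15.0 kb upstream of Cmip (chromosome 8, 117241487 to 117242784), and held 147 reads at its 48 h summit (fold 12.5) and 101 at its 96 h summit (fold 10.6). It was followed by a region 40.3 kb upstream of Map1b, which encodes a microtubule-associated protein of neurons (chromosome 13, 99556424 to 99557515), with 14.3 and 10.4. In this group the nearest 2iL region was 4.21 kb away at Cmip and 39.5 kb away at Map1b. A member inside Shroom2, an actin-binding protein gene on chromosome X, had folds of 11.0 at 48 h and 9.79 at 96 h. One inside Mllt10, a gene for a chromatin cofactor, had 11.6 and 9.32. A member 30.01 kb upstream of Sgms2, another sphingomyelin synthase gene besides Sgms1, had 11.3 and 9.20. Those inside Knop1 (10.5 and 10.4) and Etl4 (12.8 and 8.74) were also high at both times. Developmental transcription factor genes were the nearest coding gene of 2 of these members. One lay 452 kb upstream of Pou3f3, a neural POU factor gene (chromosome 1, 42242897 to 42244062), with folds of 10.8 and 10.1 and no 2iL region within 749.9 kb. Another lay 56.0 kb downstream of Foxf2, a forkhead gene (10.8 and 8.76).

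Several members were high at 48 h and modest at 96 h. A region inside Fgfr2, which encodes an FGF receptor (chromosome 7, 130251484 to 130252812), held 233 reads at 48 h (fold 13.3) and 74 at 96 h (fold 4.12). It lay 408 bp from a 2iL region of fold 6.95 that was called in all 3 libraries. The local background of the Fgfr2 region at 96 h was 17.2 reads, against a median of 7.29 over members. A region inside Ptger3, a prostaglandin receptor gene (chromosome 3, 157607149 to 157608688), had folds of 14.2 and 5.25, with a 96 h background of 7.95 reads. One inside Arhgap26 had 12.9 and 5.02. One inside Oaz2, a gene of polyamine control, had 12.9 and 5.60, and one 93.1 kb upstream of Ubl3 had 12.2 and 5.48. These members were among the 10 highest at 48 h and ranked from 254 to 689 among the 1103 at 96 h. A smaller gap was seen in a region 235 kb from Gap43, a gene for a growth cone protein, with 14.3 and 8.54, and in one 126 kb downstream of Rfx3, a gene for a factor of ciliated cells, with 13.4 and 8.33.

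Others had a higher fold at 96 h. The highest fold of any member at 96 h was in a region inside Kndc1 (chromosome 7, 139936242 to 139938873), which also lies 6.47 kb upstream of Utf1, a chromatin-bound pluripotency factor gene. Its fold was 8.68 at 48 h (175 reads) and 14.3 at 96 h (142 reads). The local background there was 19.3 reads at 48 h, against a median of 11.8 over members, and 8.99 reads at 96 h. A region inside Cubn, a gene for an endocytic receptor (chromosome 2, 13338453 to 13339669), had 8.14 and 14.03, and the nearest 2iL region was 428 kb away. A region inside the potassium channel gene Kcnh1 had 6.71 and 13.0, and one 36.5 kb upstream of Elfn1 had 6.16 and 12.7. Regions inside the phosphodiesterase gene Pde7b (7.89 and 11.8) and the calmodulin gene Calm2 (7.37 and 11.5) were also higher at 96 h. The same order was seen inside Igsf3 (7.63 and 11.5), Ccsap (6.81 and 11.2) and Megf11 (7.26 and 10.8). The 48 h background was also above the members' median at Pde7b and Igsf3 (14.5 reads each). It was below that median at Cubn, Kcnh1, Calm2, Ccsap and Megf11. The remaining member among the highest 10 at 96 h lay inside Aire and beside Dnmt3l, and is described with the formative genes.

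Members were spread over genes and the space between them in shares within or near the range of the other classes. The highest 48 h summit lay within 1 kb of the start or end of a protein-coding gene in 115 members (10.4%, 95% interval 8.68 to 12.4), elsewhere inside a gene in 470 (42.6%), outside genes but within 50 kb in 309 (28.0%) and farther away in 209 (18.9%). In the other 6 classes the share more than 50 kb from a gene ran from 15.9% to 19.5%. The share inside a gene span, gene ends included, was 48.0% in members and 40.7% to 49.8% in the others. Exons and introns were not told apart. The gene-end share was 7.51% (6.58 to 8.54) in regions called at 48 h alone, 13.4% (11.3 to 15.7) at 96 h alone and 13.3% (12.3 to 14.4) in those called in all 3 libraries. Members at gene ends had the lowest median folds of these groups at both times, and those far from genes the highest. The medians were 3.98 at 48 h and 3.95 at 96 h near gene ends, and 5.45 and 4.68 more than 50 kb from a gene. Chromosome X held 29 members, 9.54% of its merged regions (95% interval 6.48 to 13.4) and chromosome 8 held 83 (7.66%, 6.15 to 9.41), against 5.92% over the genome. These had the highest shares of the 21 chromosomes apart from Y (2 of 5).

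At the median, members lay slightly farther from 2iL regions than regions of a single later library did. The median distance to the nearest 2iL region was 40.0 kb, against 37.2 kb for regions called at 48 h alone and 35.2 kb for those called at 96 h alone. A 2iL region lay within 10 kb of 219 members (19.9%, 95% interval 17.5 to 22.3), within 1 kb of 32 (2.90%, 1.99 to 4.07), and within 100 kb of 793 (71.9%). The share within 10 kb depended on how members were called: it was 60.1% with the 3 lists cut to equal length and 33.2% where regions had to share 50% of each other's length. Both rules let a member overlap a 2iL region of the full list, which counts as within 10 kb, so these shares are not of like regions. The shares within 1 kb were 4.09% (3.39 to 4.87) at 48 h alone and 5.29% (3.99 to 6.87) at 96 h alone. At the edge of the rule, the members nearest to a 2iL region were separated from it by 28, 66, 73, 84 and 90 bp, near Poteg, Kazn, Ahcyl2, Lyplal1 and Cd9. On the other side of the rule, the smallest overlaps with a 2iL region among regions called in all 3 libraries were 258, 306, 344, 360 and 361 bp, and 4 of those 5 had folds under 2.1 in each library. For 602 members the nearest 2iL summit was within 50 kb, and that 2iL region was called in all 3 libraries for 233 (38.7%, 34.8 to 42.7) and in 2iL alone for 218 (36.2%). Over all 13642 merged regions called in 2iL, 31.2% were called in all 3 and 46.0% in 2iL alone, and regions called at 48 h alone had neighbours of both kinds in 38.9% and 37.5%, near the members' shares.

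Members were mostly single. Another member lay within 10 kb of 56 (5.08%) and within 50 kb of 118 (10.7%). A member lay within 50 kb of 1874 of 21887 protein-coding genes (8.56%), 1 member for 1723 of them, and 4 for Abr and Kazn. The 4 near Abr were all inside the gene, with folds of 3.41 to 7.47 at 48 h and 2.81 to 6.13 at 96 h. Of the 8 merged regions called in 2iL near Abr, 6 were called in 2iL alone and none in all 3 libraries. Near Kazn, a gene of cell junctions, the 4 members had folds of 2.69 to 7.34 at 48 h and 1.99 to 6.56 at 96 h, and 8 of its 14 regions of 2iL were called in all 3 libraries. The 2iL region nearest to the member was called in 2iL and at 48 h for all 4 members of Abr and for the 3 members inside Kazn. The 4 members of Abr had the same nearest region, 4.525 to 63.565 kb away. The Kazn members that start at 142233113 and 142234744 also shared 1.

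Plxna4, which encodes a receptor for axon guidance, had 3 members inside the gene and no 2iL region within 50 kb. Their folds were 11.2 and 3.85, 6.71 and 4.38, and 8.12 and 7.74 at 48 h and 96 h. Cnot8, a gene of the deadenylase complex, and its neighbour Gemin5 had 3 members and no 2iL region, with folds of 7.16 and 5.03, 4.12 and 6.72, and 4.45 and 3.59. The cluster at Pcp4l1, Nr1i3, Tomm40l, Apoa2 and Fcer1g on chromosome 1 shared 3 members, at folds of 6.81 and 6.19, 4.50 and 3.94, and 2.52 and 3.73. It includes Apoa2, a liver apolipoprotein gene that was on the list of tissue-specific control genes, and Nr1i3, which encodes a nuclear receptor. The cluster of Rhof, Setd1b and Hpd on chromosome 5 also shared 3, at up to 6.12 and 4.59. Col18a1 (collagen), Grik3 (a glutamate receptor), Kcnh3 with Mcrs1, Larp1, Gm12248, Pecam1, Etl4 and Arhgap26 had 3 each.

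Genes of pluripotency, signalling, lineage and metabolism were taken from 14 lists with 239 genes, all matched in the annotation. A member lay within 50 kb of 31 of them (13.0%, 95% interval 8.99 to 17.9), against 8.56% of all protein-coding genes. The share was highest in the NODAL and BMP list (4 of 14) and in the list of chromatin and DNA methylation genes (5 of 18, 27.8%, interval 9.69 to 53.5), and the lists of energy metabolism (0 of 22), mesoderm and endoderm (0 of 15) and trophoblast genes (0 of 13) had none. These counts cover only the genes on each list. A member summit fell in the promoter of Ndufa4, a respiratory chain gene that was not listed (folds 2.87 and 2.61). The intervals are wide. Of the 239 list genes, 180 had a 2iL region within 50 kb. This count has no counterpart here for all protein-coding genes. With a q of at most 1e-05 in every list, the chromatin list lost Jarid2 (4 of 18, 22.2%, interval 6.41 to 47.6) and the NODAL and BMP list lost Skil (3 of 14), against 7.996% of all protein-coding genes. The lists were not matched for gene length or density. A list gene was not always the nearest coding gene of its member. The members near Uhrf1, Ncor1 and Nes lay inside Plin3, Pigl and Bcan, and 1 of the 2 near Znrf3 lay inside Kremen1. Those near Spred2, Ep300 and Rara lay 75, 398 and 438 bp from Actr2, L3mbtl2 and Cdc6.

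**Figure D4:**
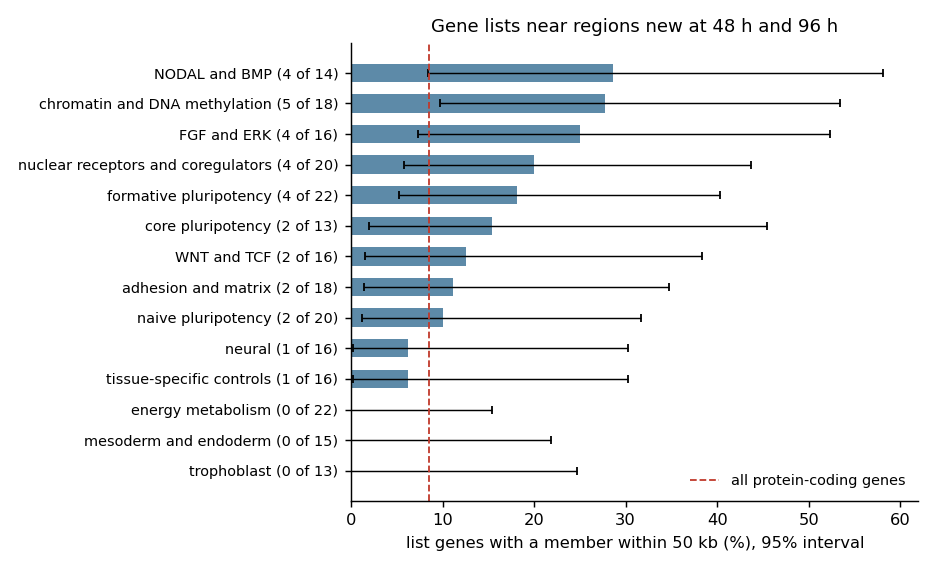
Share of the genes of each list with a member within 50 kb, in percent, with exact 95% intervals; counts are in brackets and the dashed line is the share over all protein-coding genes (8.56%). NODAL and BMP (4 of 14) and chromatin and DNA methylation (5 of 18) have the highest shares, and 3 lists had no gene near a member.

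Among formative genes, 4 of 22 lay near a member, and 2 of them act in DNA methylation. The member 3.98 kb upstream of Dnmt3l, which encodes a cofactor of the de novo DNA methyltransferases, lay inside Aire (chromosome 10, 78037297 to 78038869). Its summits held 115 reads at 48 h (fold 9.98) and 81 at 96 h (fold 11.1), and lay 3 bp apart, and the nearest 2iL region was 18.1 kb away. Dnmt3b, which encodes a de novo DNA methyltransferase, had 2 members 45.5 and 48.5 kb upstream (chromosome 2, 153603360 to 153604573 and 153600714 to 153601460). Their folds were 3.53 and 3.31 at 48 h and 4.24 and 5.89 at 96 h. Both were below the members' median of 4.95 at 48 h, and the first was below the median of 4.53 at 96 h. Their summits held 78 and 60 reads at 48 h and 51 and 42 at 96 h. The local backgrounds were 21.4 and 17.4 reads at 48 h and 11.3 and 6.31 at 96 h, against members' medians of 11.8 and 7.29. The 1 region of 2iL within 50 kb of Dnmt3b was called in 2iL alone. The 2iL region nearest to both members lay outside that window of the gene. It was 15.953 and 13.307 kb from them, had a fold of 8.70 in 2iL and was called in all 3 libraries. The nearest coding gene of both members was Commd7, 12990 and 15978 bp away. Lef1, a WNT effector gene, had a member 7.86 kb upstream (3.82 and 3.84), and Tead2, a gene of the Hippo pathway, 1 that lay 34.7 kb downstream (3.22 and 3.74). Otx2, Fgf5, Pou3f1, Dnmt3a, Etv4, Etv5 and the remaining formative genes had no member within 50 kb.

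Other genes of DNA methylation and chromatin also had members. Uhrf1, whose product brings DNMT1 to newly replicated DNA, had 1 that lay 23.4 kb upstream (chromosome 17, 56279426 to 56280667), with a fold of 4.64 at 48 h and 6.84 at 96 h. Tet3, which encodes an enzyme that oxidises methylcytosine, had 1 inside the gene (4.20 and 4.77), 697 bp from a 2iL region called in all 3 libraries. Jarid2, a Polycomb cofactor gene, had 1 inside the gene with a fold of 8.56 at 48 h and 2.34 at 96 h, where 15 reads stood at the summit and the deposited −log10 q was 0.967. Smarca4, which encodes the ATPase of the BAF remodelling complex, had 1 that lay 28.6 kb downstream (8.67 and 6.26), and Ep300, an acetyltransferase gene, 1 that lay 11.4 kb downstream (4.27 and 2.79). Of these 5, Uhrf1 and Tet3 had the higher fold at 96 h. Dnmt1, Tet1 and the Polycomb genes Ezh2, Eed and Suz12 had none.

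Members lay near 2 of 20 naive genes (10.0%) and 2 of 13 core genes (15.4%), against 8.56% of all protein-coding genes. For 2iL regions within 50 kb the counts were 19 of 20 and 13 of 13, with no such share for all protein-coding genes. Klf2, a naive factor gene, had 1 member 39.6 kb upstream (7.50 and 5.11), and Pecam1, a surface marker of naive cells, had 3 at folds of up to 5.69 and 5.57. Those near Pecam1 lay 15.2, 42.8 and 47.2 kb from it, and all but the nearest lay inside Milr1. Besides the Utf1 member, the core list held 1 member 2.62 kb from Sall4 (3.64 and 3.21), where none of the 4 regions of 2iL was called in 2iL alone. Esrrb, Nanog, Klf4, Tfcp2l1, Pou5f1 and Sox2 had none.

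In the signalling lists, 10 genes lay near a member. In the FGF and ERK list (4 of 16), Fgfr2 had a second member inside the gene (4.27 and 6.46), nearer to an annotated start and higher at 96 h, whereas the first was higher at 48 h. Dusp4, which encodes a phosphatase that acts on ERK, had 2 inside the gene (4.76 and 3.83, and 4.27 and 5.34) and no 2iL region within 50 kb. Spry4, an inhibitor of receptor signalling, had 1 that lay 10.0 kb away (3.75 and 5.79), and Spred2, another inhibitor, 1 that lay 38.2 kb downstream (4.58 and 3.23). In the NODAL and BMP list, Smad7, an inhibitory SMAD gene, had 1 inside the gene (3.84 and 3.45). This member lay 406 bp from a 2iL region of fold 4.81 that was called in all 3 libraries. Skil, which encodes a SMAD corepressor, had 1 that lay 4.67 kb away (3.18 and 2.85), with no 2iL region within 50 kb of the gene. Smad3, a NODAL effector gene, had 1 that lay 45.6 kb upstream (2.38 and 3.56), and the BMP target Id3 had 1 that lay 33.9 kb upstream (5.65 and 4.82). In the WNT list (2 of 16), Znrf3, which encodes a ligase that removes WNT receptors, had 2 (4.94 and 4.17, and 3.43 and 5.70), and the WNT receptor gene Fzd7 had 1 that lay 9.26 kb upstream with no 2iL region within 50 kb (4.37 and 5.003).

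Of the nuclear receptor and coregulator genes, 4 of 20 lay near a member. Esrrg, a paralogue of Esrrb, had 1 inside the gene (chromosome 1, 187669240 to 187670231), with 62 reads and a fold of 6.66 at 48 h against 43 reads and 3.59 at 96 h, 92.6 kb from the nearest 2iL region. Ncoa1, a coactivator gene, had 1 inside the gene (4.94 and 3.25), Ncor1, a corepressor gene, 1 that lay 37.5 kb upstream (5.43 and 5.26), and Rara, a retinoic acid receptor gene, 1 that lay 20.5 kb upstream of the gene span (3.51 and 3.69). In the adhesion list (2 of 18), Cdh1, which encodes E-cadherin, had 2 inside the gene (4.34 and 4.22, and 2.40 and 2.54), and Cldn4, a tight junction gene, had 1 that lay 126 bp past its end (3.52 and 3.605). The Cldn4 member lay 157 bp from a 2iL region of fold 5.82 that was called in 2iL and at 48 h. The neural list (1 of 16) had the member 16.6 kb downstream of Nes, a gene for an intermediate filament of neural progenitors (4.89 and 3.62). The control list of other tissues had Apoa2 (1 of 16).

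**Figure D5:**
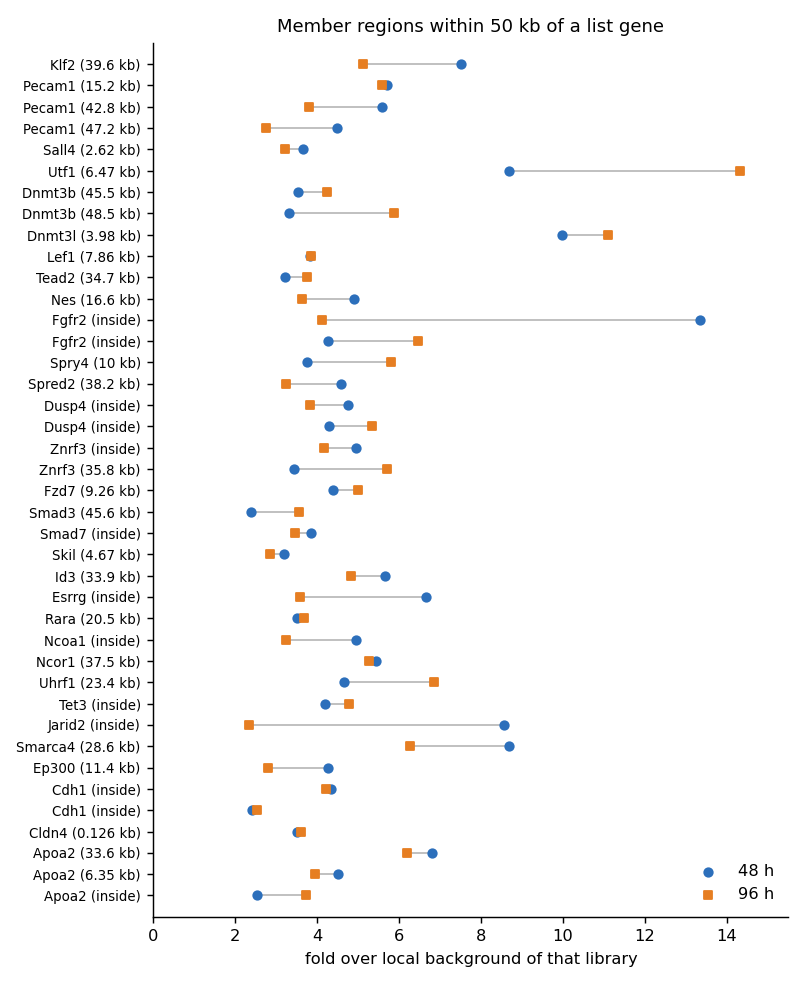
Fold over local background at 48 h (blue circles) and 96 h (orange squares) of each member within 50 kb of a list gene, with its distance from the gene span in brackets. The list gene was not always the nearest gene. The members at Utf1 (8.68 and 14.3) and Dnmt3l (9.98 and 11.1) are high at both times, and those at Fgfr2 (13.3 and 4.12) and Jarid2 (8.56 and 2.34) are higher at 48 h.

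A few members rested on raised background. In 9 members the local background was at least 3 times the members' median in at least 1 of the later libraries, and their folds ran from 1.69 to 2.91 at 48 h and from 1.75 to 3.66 at 96 h. The extreme was a region inside Cmss1 (chromosome 16, 57391289 to 57391701), with 324 reads over a background of 190.8 at 48 h and 304 over 145.7 at 96 h. The member at the Tomm20 promoter and 1 of the 2 members on chromosome Y were among the 9. Without them the medians were 4.96 and 4.53.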

How the data were processed

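ESRRB binding was mapped in 3 libraries, 1 per condition, and samples were grouped by their titles. The submitters' processing notes name bcl2fastq 2.20.0.422, BWA, SAMtools, Picard, MACS2 and the build mm10. Tool roles, other versions, the calling threshold and the use of the inputs were not given in the sources used here. For each summit the authors deposited a fold (a ratio to local background), a p-value and q-value as −log10, a summit offset and a score capped at 1000.

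The region was a unique interval with its highest summit. Merging was done in Python and gave the same 1103 members with bedtools 2.31.1. Reads and background at a summit were solved from fold and p (fold with 1 read added to both, Poisson tail), and came out whole within 0.05 reads for 99.97% to 99.99% of summits. The lists held 13767, 10970 and 7018 regions, with a median of 51, 68 and 45 reads at a region's highest summit. The classes and reads were tested on simulated data. Gene spans, start sites and promoter sequences were from RefSeq (GRCm38.p6, of which mm10 is the browser name), and 17462 of 21887 protein-coding genes had a start site in the promoter table. Place is that of the 48 h summit. Coordinates are 1-based. Intervals are exact Clopper-Pearson and cover counting error only. No p-value was computed.

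The regions, gene lists and comparisons were chosen with earlier results of these data known. Named regions were, by rule, the 10 members of highest fold at 48 h, the 10 at 96 h and the 10 best by the lower of their ranks in the 2 libraries, with their nearest coding gene. Named genes were list genes with a member within 50 kb and the 10 genes with most members, with all genes tied at 3 kept. One gene under that rule is not reported here. The rule for sequences asked for a window around the summits of named regions and could not be applied, so the member promoters with a half-site, chosen after the data were seen, are printed instead. No genome was used, so motifs were searched in promoters only, and the promoter table has no chromosome 18. Alternatives used a stricter q (at most 1e-05), lists cut to 1 length, other overlap rules and other windows.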

Additional observations from a re-analysis of the deposited data

How the results depend on the processing

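The number of members stayed within 1.5 times of 1103 under every alternative run, from 1035 with a q of 1e-05 or less to 1478 with lists of equal length (7018 regions each). With lists of equal length the median fold was 5.96 at 48 h and 4.97 at 96 h, the summits lay a median of 30 bp apart and 60.1% of members had a 2iL region of the full list within 10 kb, which counts 2iL regions that were dropped from the shortened list. That share was 33.2% where regions had to share 50% of each other's length, 29.6% with summits within 250 bp, 17.5% without members within 1 kb of a 2iL region and 55.6% with a window of 50 kb. The 50% and 250 bp rules let a member overlap a 2iL region, which counts as within 10 kb. The median fold was 4.67 at 96 h with that overlap rule and 5.08 at 48 h with summits within 250 bp. The gene-end share was 15.9% over all annotated genes and 25.5% within 5 kb, and 17 list genes had a member within 10 kb. Leaving out members of high background, taking promoters by 1 library's summit and searching the half-site core (in 33.3% of promoters) were alternatives chosen after seeing the data. The other alternatives moved each value by less than its counting interval or, for counts, by less than 1.5 times. Motif windows around summits were not run. No paired analysis was possible because each condition had 1 library. Whether depth bears on absence from the 2iL list was not tested.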
